A study of Homo sapiens with 30 samples.

Results

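HOX genes of the 4 human clusters and the CDX genes were followed through a Wnt3a, BET inhibitor and Activin A time course in RUES2 cells, an established human embryonic stem cell line. Genes named HOXA, HOXB, HOXC or HOXD with a paralog number from 1 to 13 were taken, without antisense genes, together with CDX1, CDX2 and CDX4. Described here are 41 genes of 27348 measured in both count tables: 10 HOXA, 10 HOXB, 9 HOXC, 9 HOXD and 3 CDX genes. All cells were kept in TeSR E7 medium with rock inhibitor, and RNA was sequenced from 16 libraries in 8 groups of 2. At 24 h, E7 had medium alone, E7_CPI had CPI-203 at 1 µM, WNT had Wnt3a at 100 ng/mL, and WNT_CPI had both. CPI-203 blocks the BET bromodomain proteins, which read acetylated histones. At 48 h, E7_ACT had medium and then Activin A at 10 ng/mL on day 2, WNT_E7 had Wnt3a and then medium alone, and WNT_ACT had Wnt3a and then Activin A. The fourth 48 h group, WNT_CPI_ACT, had Wnt3a with CPI-203 on day 1 and Activin A on day 2. All libraries come from 1 cell line, and the labels do not say whether replicates were separate cultures, so the tests reflect the spread among these libraries, which may be technical.

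HOX proteins are homeodomain transcription factors that give cells their position along the head to tail axis. Genes with low paralog numbers sit at the 3′ end of a cluster and act first and furthest forward, in the hindbrain, whereas genes with high numbers sit at the 5′ end and act later, in the trunk, tail bud, limb and hindgut. CDX proteins are related homeodomain factors of the ParaHox family. They are switched on by Wnt signalling in the caudal embryo and bind control regions of trunk HOX genes. CDX2 is also known as a regulator of trophoblast and of intestinal epithelium. In pluripotent stem cells both families are held silent by Polycomb proteins.

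Library totals ran from 36268324 to 43347733 counts. In the replicate 1 table, the values under E7_CPI were shifted against the gene names. Taken as they stood, they correlated with no other library beyond an absolute Spearman coefficient of 0.00657. Matched to the names of the replicate 2 table, they correlated with the others at 0.954 to 0.986, and they were used in that form. The 2 libraries of E7_CPI were also closer to each other than those of any other group. Their mean chi-square per gene was 3.25 against 96.9 to 164, and the median 0.995 against 10.1 to 20. Replicate 1 of E7_CPI did not deviate with the other replicate 1 libraries. Whether these 2 are separate replicates is not known, although the first fit counts them as 2. Calls of HOX and CDX genes in comparisons with E7_CPI are therefore given with and without E7_CPI replicate 1. Because replicate numbers paired the other libraries, a second fit, called the paired fit below, kept the replicate number as a term and left this library out. In the 2 libraries of WNT_CPI_ACT, 5 endoderm markers summed to 167 CPM (read counts scaled to a common library total) in replicate 1 and 0.218 CPM in replicate 2. The 9 fibroblast markers summed to 379 to 1048 CPM over the libraries, although DCN and LUM among them reached at most 0.0274 CPM in any library. The 9 trophoblast and amnion markers summed to 1.33 to 14.4 CPM, with CGA, ELF5 and CGB5 at most at 0.199 CPM. All 9 pluripotent cell markers were detected in every group, although 6 of them fell with CPI-203, as given below.

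The upstream sequences of 4 genes are shown, chosen after the values were seen: CDX2 and HOXB1 for the counts they gained with Wnt3a, and HOXA13 and HOXD1 for those gained when CPI-203 was added. They are the 250 bases before the transcription start in the RefSeq annotation of GRCh38.p14, 5′ to 3′ on the strand of the gene. Capitals mark matches to the TCF/LEF motif of the Wnt pathway (the letters CTTTG and then a base that is A or T at each of the next 2 positions, 7 letters in all) or to the CDX motif (TTTAT, then either G or T, then G), on either strand. The searched motifs do not overlap each other in these windows. CDX2 is at chr13:27969316-27969565, minus strand, HOXB1 at chr17:48531012-48531261, minus strand, HOXA13 at chr7:27200092-27200341, minus strand, and HOXD1 at chr2:176188418-176188667, plus strand.
CDX2: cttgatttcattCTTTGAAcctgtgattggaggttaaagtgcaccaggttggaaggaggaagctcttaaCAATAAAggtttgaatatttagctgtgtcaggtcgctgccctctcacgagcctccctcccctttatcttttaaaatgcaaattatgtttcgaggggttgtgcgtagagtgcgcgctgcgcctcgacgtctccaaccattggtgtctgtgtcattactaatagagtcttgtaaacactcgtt
HOXB1: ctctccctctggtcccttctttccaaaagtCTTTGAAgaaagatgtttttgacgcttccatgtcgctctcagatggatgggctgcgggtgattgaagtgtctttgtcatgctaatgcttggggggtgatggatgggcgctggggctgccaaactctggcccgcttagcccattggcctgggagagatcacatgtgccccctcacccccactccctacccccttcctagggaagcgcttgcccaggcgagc
HOXA13: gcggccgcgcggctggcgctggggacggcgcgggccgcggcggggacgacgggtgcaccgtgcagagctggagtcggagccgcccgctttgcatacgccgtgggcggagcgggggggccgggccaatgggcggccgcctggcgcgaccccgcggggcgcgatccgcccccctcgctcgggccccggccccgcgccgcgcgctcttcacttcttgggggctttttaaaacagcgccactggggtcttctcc
HOXD1: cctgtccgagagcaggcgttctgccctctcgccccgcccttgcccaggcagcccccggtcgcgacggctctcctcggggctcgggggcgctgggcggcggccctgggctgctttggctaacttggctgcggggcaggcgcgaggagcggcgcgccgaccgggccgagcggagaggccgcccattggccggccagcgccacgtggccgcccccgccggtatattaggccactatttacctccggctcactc
The CDX2 window held a TCF/LEF match from 238 to 232 bases before the start and a CDX match, read on the other strand, from 181 to 175 bases before it. The HOXB1 window held a TCF/LEF match from 220 to 214 bases before the start. The windows of HOXA13 and HOXD1 held neither set of letters. Of all 35116 upstream windows in the table, 11.96% held a TCF/LEF match and 5.812% a CDX match. Of the 41 genes, 22 had an entry: 4 held a TCF/LEF match (CDX2, HOXB1, HOXA11 and HOXD12) and 4 a CDX match (CDX2, HOXC4, HOXC5 and HOXD8). HOXA2, which also had more counts with Wnt3a, held neither motif, and CDX1 had no entry. The part of these motifs in the counts was not tested. HOXC4 and HOXC5 share a match from 31 to 25 bases before the start. GC content was 45.2% in the CDX2 window, 57.2% for HOXB1, 74.8% for HOXD1 and 78% for HOXA13, beside a median of 58% over all windows.

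Most HOX genes were close to silent in all 8 groups. Only 9 of the 41 genes had enough counts for the test: HOXA2 (Entrez 3199), HOXA13 (3209), HOXB1 (3211), HOXB2 (3212), HOXB3 (3213), HOXD1 (3231), CDX1 (1044), CDX2 (1045) and CDX4 (1046). The other 32 comprised 8 HOXA, 7 HOXB, all 9 HOXC and 8 HOXD genes. Of these, HOXA7, HOXC10, HOXC11, HOXC12 and HOXD10 had 0 counts in every library, 23 had a highest count of 1 to 9, and HOXB8, HOXB9, HOXC6 and HOXD4 reached 10 or more in 1 library each. In the untreated E7 libraries, the 38 HOX genes together had 5 and 16 counts. They had 36 and 56 counts in WNT, 44 and 40 in E7_CPI, and 701 and 603 in WNT_CPI. A gene could pass the filter through the group in which it was high, so the counts of changed genes below describe the 9 tested genes and not the family. HOXA2, HOXA13, HOXB2, HOXB3 and HOXD1 reached 10 counts only in libraries of cells that had been given CPI-203. The paired fit tested 13 of the 41 genes. Its filter also passed HOXB8, HOXB9, HOXC6 and HOXD4, through WNT_CPI_ACT replicate 1, the library in which they were high. A count of 0 in both libraries of a group allows a level of up to 0.0353 to 0.0415 CPM (3 counts over the group), and such limits and the intervals below cover counting error only. Where a group had 0 counts, a fold is given as a bound against that limit. Strand use in the counting is not given in the sources used here, so reads of overlapping antisense genes (HAGLR beside HOXD1, HOTTIP beside HOXA13) cannot be told apart from those of the HOX gene.

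**Figure D1:**
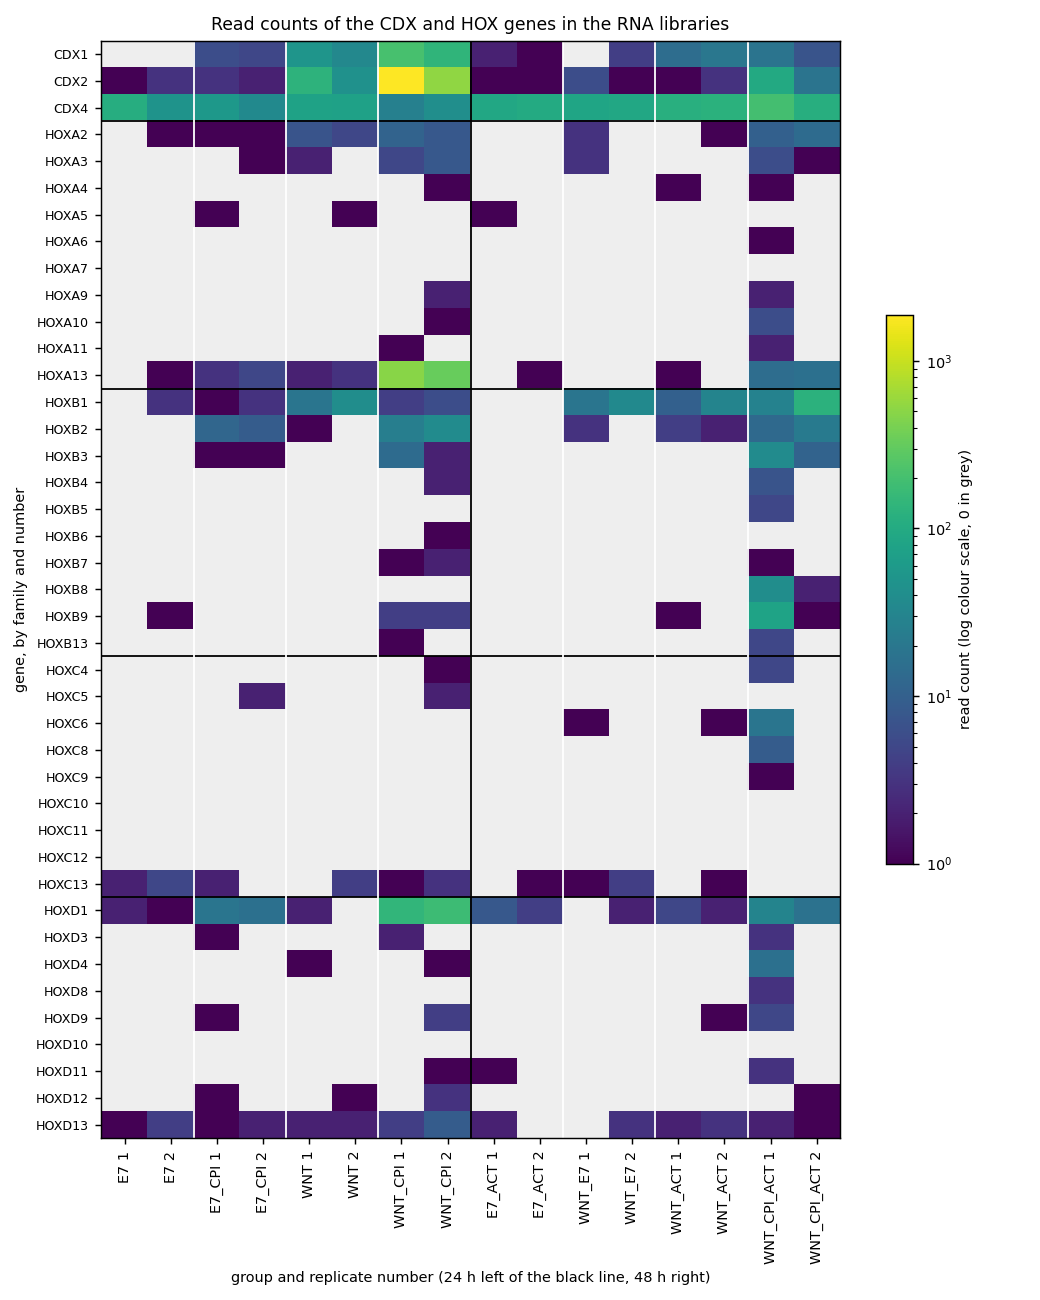
Read counts of the 41 genes (rows, by family and paralog number, horizontal black lines between families) in the 16 RNA libraries (columns), on a log colour scale with 0 in grey. HOX counts sit mainly at HOXA13, HOXB1 to HOXB3 and HOXD1, and the fullest column for the remaining genes is WNT_CPI_ACT replicate 1.

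The first comparison was Wnt3a for 1 day against medium alone. CDX1, CDX2, HOXA2, HOXA13 and HOXB1 all had more counts in both WNT libraries than in either E7 library. Here and below, such an order of 2 against 2 libraries is no test. The share of all genes with it was not counted. CDX1 stood at 0 counts in both E7 libraries and at 1.2 and 0.951 CPM in WNT, at least 30.3-fold higher. CDX2 stood at 0.0238 and 0.0716 CPM in E7 and at 3.07 and 1.26 CPM in WNT. HOXB1, which patterns the fourth hindbrain segment, had 0 and 3 counts in E7 and 19 and 40 in WNT. HOXA2, another hindbrain gene, had 0 and 1 counts in E7 and 7 and 5 in WNT (log2 fold change 3.37, SE 1.14, edgeR adjusted p = 0.468). HOXA13 had 0 and 1 in E7 and 2 and 3 in WNT (2.16, SE 1.09, edgeR adjusted p = 0.958). CDX4 did not separate the groups: its levels were 2.62 and 1.15 CPM in E7 and 1.78 and 2.1 CPM in WNT, with a log2 fold change of 0.04. With edgeR's quasi-likelihood test and Benjamini-Hochberg adjustment, 1 of the 9 tested genes rose and none fell, where 0.605% of all tested genes were called. This was CDX1 (adjusted p = 0.0167). In the paired fit, which called 2.33% of genes, 3 rose: CDX1, CDX2 (5.42, SE 0.63, edgeR adjusted p = 0.00114) and HOXB1 (4.39, SE 0.67, edgeR adjusted p = 0.00838). Without the replicate term the edgeR adjusted p was 0.0716 for CDX2 and 0.281 for HOXB1. The unpaired call of CDX1 did not hold when any 1 of the 4 compared libraries was left out (edgeR adjusted p = 0.0596 to 0.177).

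**Figure D2:**
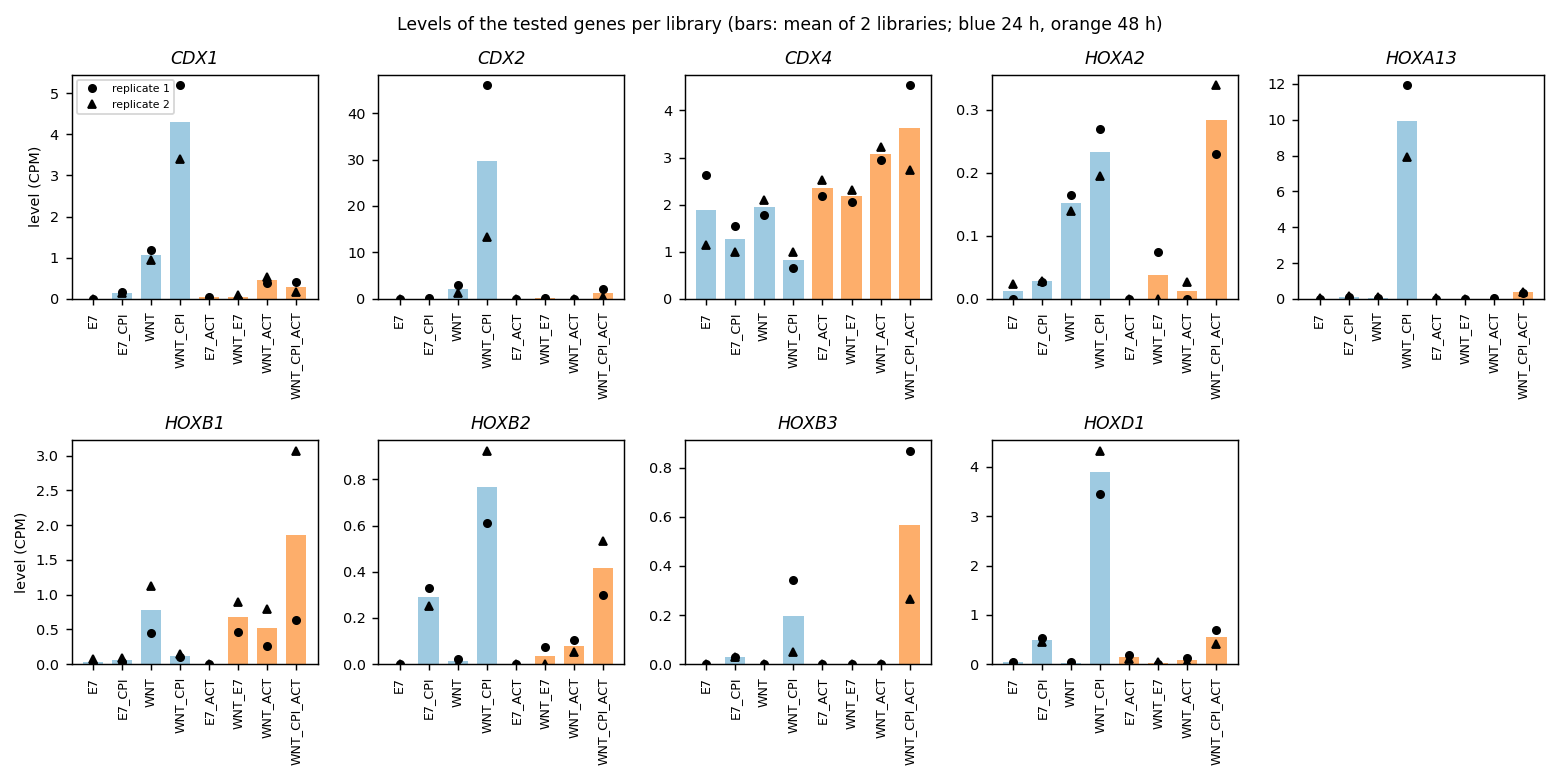
Levels in CPM (linear axes from 0) of the 9 tested genes in the 8 groups; bars are means of 2 libraries, circles replicate 1 and triangles replicate 2. HOXA13, HOXD1 and CDX2 have their highest bar in WNT_CPI, at 9.93, 3.89 and 29.6 CPM.

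The second comparison asked what CPI-203 did without Wnt3a. HOXB2, HOXD1 and CDX1 were higher in both E7_CPI libraries than in both E7 libraries, all at low levels. HOXB2, a hindbrain gene, had 0 counts in both E7 libraries and 12 and 9 in E7_CPI, at least 8.12-fold higher. HOXD1, the 3′-most HOXD gene, had 2 and 1 counts in E7 and 19 and 16 in E7_CPI, a ratio of 13.5 (95% counting interval 4.27 to 68.8). CDX1 had 0 and 0 counts in E7 and 6 and 5 in E7_CPI, at least 4.25-fold higher. The groups did not overlap for any of these genes, but the 2 E7_CPI libraries were so close that they may not be separate replicates. HOXB1 (1 and 3 counts) and CDX2 (3 and 2) stayed in E7_CPI within a few counts of E7. By edgeR's quasi-likelihood test 3 of the 9 tested genes rose, where 32.7% of all tested genes were called, a share near the background. The edgeR adjusted p was 0.00782 for HOXB2, 0.0058 for HOXD1 and 0.0171 for CDX1. HOXA13, the 5′-most HOXA gene, had 0 and 1 counts in E7 and 3 and 5 in E7_CPI (log2 fold change 2.92, SE 1.01, edgeR adjusted p = 0.0502). CDX4 stood at 1.54 and 1 CPM in E7_CPI, where E7 had 2.62 and 1.15 CPM, so the groups overlapped. The paired fit called the same 3 genes, beside 44% of all genes. Of the 9 pluripotent cell markers 6 fell in this comparison (DNMT3B, POU5F1, DPPA4, SALL4, TDGF1 and NANOG). Their log2 fold changes ran from -0.95 for DNMT3B to -6.72 for NANOG. Of the 5 neural markers NES and LHX2 rose, and the list summed to 377 to 382 CPM in E7 and 728 to 759 CPM in E7_CPI. The paired fit without E7_CPI replicate 1 did not call LHX2. The fibroblast markers POSTN, COL1A2 and PDGFRB fell. Of the 5 tested trophoblast and amnion markers GATA2 and TFAP2A rose and KRT7 fell, with a median log2 fold change of 1.87. That list summed to 11.1 to 14.4 CPM in E7 and 4.02 to 4.28 CPM in E7_CPI. The part of these markers in the HOX and CDX values was not tested. CDX1 lost its call without any 1 of the 4 libraries compared (edgeR adjusted p = 0.0503 to 0.0744, and 0.0637 without E7_CPI replicate 1), whereas HOXB2 and HOXD1 were called in every such fit (edgeR adjusted p at most 0.041 and 0.049 over all alternatives).

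With CPI-203 on top of Wnt3a, HOXA13, HOXD1, HOXB2, CDX1 and CDX2 were higher and CDX4 was lower than with Wnt3a alone. HOXA13, known for its roles in the hindgut, genital tract and digits, had 2 and 3 counts in WNT and 487 and 326 in WNT_CPI, or 11.9 and 7.93 CPM. HOXD1 had 2 and 0 counts in WNT and 141 and 178 in WNT_CPI, or 3.45 and 4.33 CPM. HOXB2 had 1 and 0 counts in WNT and 25 and 38 in WNT_CPI. In all 3 genes the lower WNT_CPI library was far above the higher WNT library. CDX2 rose from 3.07 and 1.26 CPM in WNT to 46 and 13.3 CPM in WNT_CPI, with replicate 1 the higher library in both groups. CDX1 rose from 1.2 and 0.951 to 5.19 and 3.41 CPM. CDX4 moved the other way, from 1.78 and 2.1 to 0.661 and 0.998 CPM. HOXB1 had 19 and 40 counts in WNT and 4 and 6 in WNT_CPI, so its groups did not overlap either.

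Of the 9 tested genes, 5 rose and 1 fell by edgeR's quasi-likelihood test with CPI-203 on top of Wnt3a, where 31% of all tested genes were called. The log2 fold change was 7.21 for HOXA13 (SE 0.64, edgeR adjusted p = 4.63e-05) and 7.10 for HOXD1 (SE 0.81, edgeR adjusted p = 0.000122). It was 5.61 for HOXB2 (SE 1.01, edgeR adjusted p = 0.00333), 3.77 for CDX2 (SE 0.81, edgeR adjusted p = 0.00536) and 2.00 for CDX1 (SE 0.57, edgeR adjusted p = 0.0245). CDX4 fell by 1.22 on the log2 scale (SE 0.41, edgeR adjusted p = 0.0454). With 52.9% of all genes called, the paired fit called 8 of these, adding HOXB1, which fell by 2.64 (SE 0.55, edgeR adjusted p = 0.00261), and HOXB3 (edgeR adjusted p = 0.0151). HOXB3 had 0 counts in WNT and 14 and 2 in WNT_CPI, at least 5.1-fold higher. Without the replicate term HOXB1 had an edgeR adjusted p of 0.0783 and HOXB3 one of 0.0792. The calls of HOXA13, HOXD1 and HOXB2 held in every alternative that tested them. CDX2 missed the threshold without WNT replicate 2 (edgeR adjusted p = 0.0514), and CDX1 without either WNT library or WNT_CPI replicate 1 (0.087 to 0.131). CDX4 missed it without any 1 of the 4 compared libraries (0.0724 to 0.231) or without E7_CPI replicate 1 (0.0549). The summed level of the 9 trophoblast and amnion markers was 6.87 to 11.2 CPM in WNT and 2.52 to 3.09 CPM in WNT_CPI, with 1 of 5 tested markers up (TFAP2A) and 1 down (KRT7). The median log2 fold change of these 5 was 0.53, and the paired fit called GATA2 up as well. The same 6 pluripotent cell markers fell, with log2 fold changes from -0.98 for DNMT3B to -7.04 for NANOG. The same 3 fibroblast markers fell, and NES and LHX2 rose, with the neural list at 297 to 324 CPM in WNT and 583 to 765 CPM in WNT_CPI. The part of these markers in the results was not tested. In bulk RNA, fewer cells of a type and less RNA per cell cannot be told apart.

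**Figure D3:**
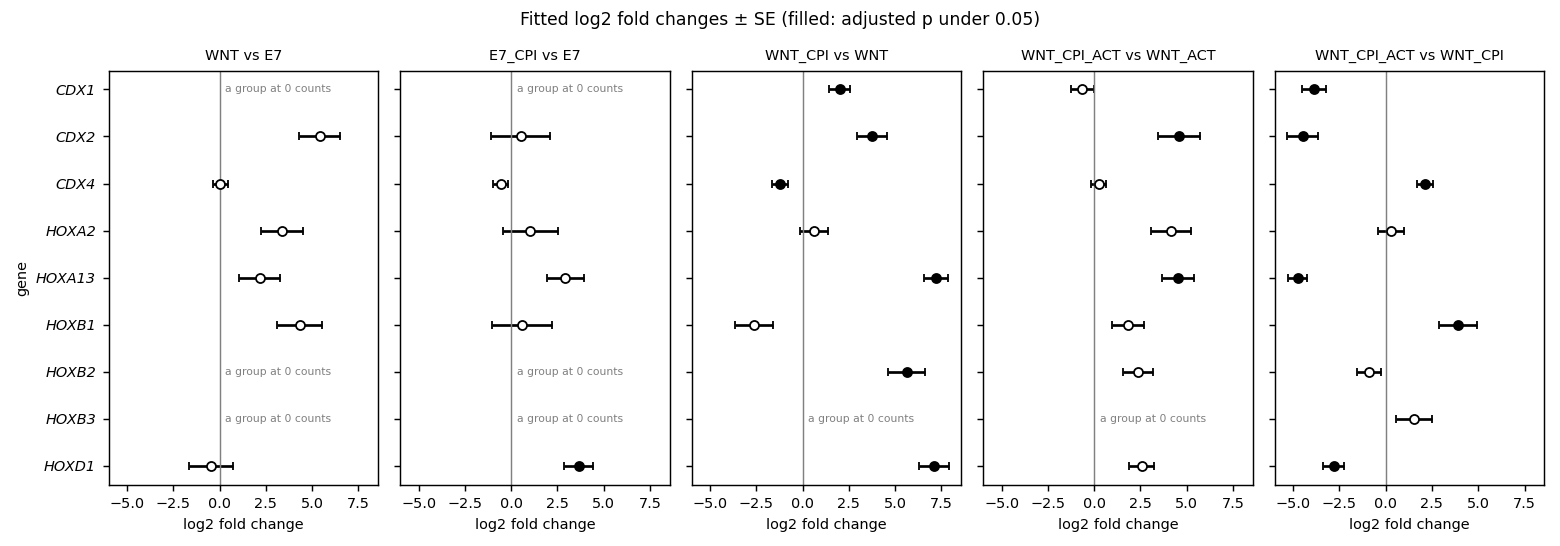
Fitted log2 fold changes with their SE for the 9 tested genes in 5 comparisons, filled where the edgeR adjusted p was under 0.05; genes with a group at 0 counts carry no point. With CPI-203 on top of Wnt3a, HOXA13 and HOXD1 stand at 7.21 and 7.10, and on day 2 (right panel) at -4.75 and -2.82.

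Wnt3a was also compared within the CPI-203 treated cells. HOXA13 went from 3 and 5 counts in E7_CPI to 487 and 326 in WNT_CPI, a ratio of 89.7 (95% counting interval 45.3 to 208). CDX2 went from 3 and 2 counts to 1878 and 545, a ratio of 428 (183 to 1318). CDX1 went from 6 and 5 counts to 212 and 140. All 3 genes were far apart between the groups. They were also the 3 of the 9 tested genes called by edgeR's quasi-likelihood test (adjusted p = 0.00131 for HOXA13, 0.00729 for CDX2 and 0.0171 for CDX1), where 0.386% of all genes were called. HOXD1 had 19 and 16 counts in E7_CPI and 141 and 178 in WNT_CPI (edgeR adjusted p = 0.0766, and 0.0705 in the paired fit without E7_CPI replicate 1). Without E7_CPI replicate 1 none of the 3 calls held, with edgeR adjusted p-values of 0.0627 for HOXA13, 0.194 for CDX2 and 0.345 for CDX1. Without E7_CPI replicate 2 HOXA13 alone of these was called, and CDX2 and CDX1 had 0.201 and 0.364. Without WNT_CPI replicate 1 CDX1 had 0.131. The paired fit, which lacks that E7_CPI library, called CDX1, CDX2 and HOXA13 beside 0.534% of all genes.

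Whether Wnt3a and CPI-203 together differed from the sum of their separate effects on the log scale was tested as an interaction at 24 h. By edgeR's quasi-likelihood test 0 of the 9 genes were called, where 0.0115% of all genes were called, and 1 had an unadjusted p under 0.05. The paired fit (0.0393% of all genes called) and DESeq2 called 0 as well. DESeq2 called 33 of 17355 genes, and had 3 of the 9 and 461 of all at an unadjusted p under 0.05. The estimates for HOXA13 and HOXD1 were 4.29 (SE 1.97) and 3.46 (SE 1.40), with adjusted p = 0.995 for both in edgeR. HOXA13 had 5 counts over the 2 WNT libraries, 8 over E7_CPI, 1 over E7 and 813 over WNT_CPI. HOXD1 had 2, 35, 3 and 319 counts in the same order.

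Removing Wnt3a for the second day was followed in WNT_E7 against WNT, which also differ in time. CDX1 had 0 and 4 counts and CDX2 had 6 and 1 in WNT_E7, where WNT had 51 and 34 and 131 and 45, without overlap. HOXB1 had 19 and 36 counts in WNT_E7, beside 19 and 40 in WNT. CDX4 stood at 2.05 and 2.31 CPM. By edgeR's quasi-likelihood test 0 of the 9 genes were called, where 0% of all genes were called, and 3 had an unadjusted p under 0.05. DESeq2 called 12 of 17355 genes, among them CDX1 (log2 fold change -4.44, adjusted p = 0.0027) and CDX2 (-4.65, adjusted p = 0.00957). In the paired fit, which called 0.0393% of all genes, CDX2 fell by 4.66 on the log2 scale (SE 0.57, edgeR adjusted p = 0.0394).

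Activin A after Wnt3a was set against Wnt3a and then medium. CDX1 had more counts with Activin A, at 15 and 20 counts in WNT_ACT against 0 and 4 in WNT_E7, a ratio of 9.17 (95% counting interval 3.28 to 35.5). The groups did not overlap. The endoderm markers summed to 174 to 2249 CPM in WNT_ACT and 1.26 to 1.27 CPM in WNT_E7, and their part in these values was not tested. HOXB1 overlapped between the groups, at 10 and 30 counts against 19 and 36, and CDX2 stayed at 1 and 3 counts. None of the 9 genes was called by edgeR's quasi-likelihood test, where 0.882% of all genes were called, and 1 had an unadjusted p under 0.05. The paired fit called 6.35% of all genes and CDX1 among these (log2 fold change 3.12, SE 0.79, edgeR adjusted p = 0.0466). DESeq2 called CDX1 as well (adjusted p = 0.0143), among 694 of 17355 genes.

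Against Activin A without Wnt3a, the same WNT_ACT libraries had more counts of HOXB1 and CDX1. In E7_ACT, HOXA2, HOXB1, HOXB2 and HOXB3 had 0 counts in both libraries. HOXB1 was therefore at least 14-fold higher in WNT_ACT. CDX1 had 2 and 1 counts in E7_ACT and 15 and 20 in WNT_ACT. Here too edgeR's quasi-likelihood test called 0 of the 9 genes, where 3.84% of all genes were called, and 3 had an unadjusted p under 0.05. The paired fit called 11.4% of all genes and both CDX1 (log2 fold change 3.54, SE 0.83, edgeR adjusted p = 0.0233) and HOXB1 (edgeR adjusted p = 0.00303). DESeq2 called 2 of the 9, among 1126 of 17355 genes. Between E7_ACT and E7, edgeR's quasi-likelihood test called 0 of the 9 genes, where 0.599% of all genes were called, with 0 at an unadjusted p under 0.05. Neither the paired fit (4.16% of all genes) nor DESeq2 (440 of 17355 genes) called any. CDX4 stood at 2.19 and 2.53 CPM in E7_ACT, and HOXD1 at 8 and 4 counts.

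On day 2, several HOX genes and CDX2 were higher in the cells that had been given CPI-203 on day 1. HOXA13 had 15 and 16 counts in WNT_CPI_ACT and 1 and 0 in WNT_ACT, a ratio of 28.1 (95% counting interval 4.68 to 1144). CDX2 stood at 2.2 and 0.435 CPM against 0.0256 and 0.0791 CPM. Neither gene overlapped between the groups, although the WNT_CPI_ACT libraries of CDX2 lay several fold apart. HOXB1 had 28 and 127 counts against 10 and 30, which overlap, and replicate 2 was the higher library in both groups. HOXD1 had 30 and 17 counts against 5 and 2, HOXA2 had 10 and 14 against 0 and 1, HOXB2 had 13 and 22 against 4 and 2, and HOXB3 had 38 and 11 against 0 and 0. CDX1 (18 and 7 against 15 and 20) overlapped.

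By edgeR's quasi-likelihood test 2 of the 9 genes rose in WNT_CPI_ACT against WNT_ACT, where 5.9% of all genes were called. They were HOXA13 (log2 fold change 4.52, SE 0.86, edgeR adjusted p = 0.0165) and CDX2 (4.59, SE 1.12, edgeR adjusted p = 0.0394). With 20.2% of all genes called, the paired fit called 8 of the 13 genes followed here that it tested. Those added were HOXA2, HOXB1, HOXB3, HOXD1, HOXB8 and HOXB9 (edgeR adjusted p = 0.00968 to 0.0384). HOXB8 and HOXB9 passed its filter only through WNT_CPI_ACT replicate 1, so their calls add no support. HOXA2, HOXA13, HOXB3 and HOXD1 also passed the filter through groups given CPI-203, in which they were high, so their calls are not independent of it. CDX2 lost its call without WNT_ACT replicate 1, WNT_ACT replicate 2 or WNT_CPI_ACT replicate 1 (edgeR adjusted p = 0.145 to 0.206) and without E7_CPI replicate 1 (0.0657). HOXA13 lost its call without WNT_ACT replicate 2 (0.0905) or WNT_CPI_ACT replicate 2 (0.0669). In a fit of the 4 compared libraries alone neither was called (0.293 for HOXA13 and 0.342 for CDX2). That fit called 0 of its 16274 genes, so it says nothing particular to these 2.

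Compared with its own 24 h state, WNT_CPI_ACT had lower counts of some of these genes and higher counts of others, after CPI-203 and Wnt3a had been replaced by Activin A. HOXA13 fell from 487 and 326 counts to 15 and 16, CDX2 from 1878 and 545 to 96 and 18, CDX1 from 212 and 140 to 18 and 7, and HOXD1 from 141 and 178 to 30 and 17. CDX4 rose from 27 and 41 counts to 198 and 113, and HOXB1 from 4 and 6 to 28 and 127. Of the 9 genes, 4 fell and 2 rose by edgeR's quasi-likelihood test, where 26.9% of all genes were called. HOXA13 fell by 4.75 on the log2 scale (SE 0.53, edgeR adjusted p = 0.000212). CDX2 fell by 4.48 (SE 0.84, edgeR adjusted p = 0.00286), CDX1 fell by 3.87 (SE 0.63, edgeR adjusted p = 0.00176) and HOXD1 fell by 2.82 (SE 0.57, edgeR adjusted p = 0.0043). CDX4 rose by 2.13 (SE 0.42, edgeR adjusted p = 0.00354) and HOXB1 by 3.89 (SE 1.02, edgeR adjusted p = 0.0187). The paired fit called 48.4% of all genes, and these 6 with HOXB8 and HOXC6 of the 13 it tested. HOXB8 and HOXC6 passed its filter only through WNT_CPI_ACT replicate 1, so their calls add no support. HOXB1 lost its call without WNT_CPI replicate 1, WNT_CPI replicate 2 or WNT_CPI_ACT replicate 2 (edgeR adjusted p = 0.0913 to 0.137), and the other 5 calls held without any 1 library. In a fit of the 4 compared libraries alone CDX2 and HOXB1 were not called (edgeR adjusted p = 0.0556 and 0.0633), where 1684 of 16263 genes were called. This comparison shares the WNT_CPI libraries with the one of CPI-203 on top of Wnt3a, so the opposite signs of HOXA13, HOXD1, CDX1, CDX2 and CDX4 in the 2 are not independent of each other.

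The trunk HOX genes appeared almost only in 1 library. Of the 27 untested genes with any count, 17 had their highest count in WNT_CPI_ACT replicate 1. That library had 222 counts over the untested genes and replicate 2 had 6, against 1 to 45 in the other libraries. HOXB9 had 80 and 1 counts in the 2 libraries of WNT_CPI_ACT, HOXB8 had 40 and 2, HOXC6 had 19 and 0, and HOXD4 had 16 and 0. HOXB8, HOXB9 and HOXC6 are active in the trunk, and their calls in the paired fit rest on this 1 library. At least 3 counts were seen for 21 HOX genes in replicate 1 and for 6 in replicate 2. HOXB1, the first gene of its cluster, did not follow that order, with 28 counts in replicate 1 and 127 in replicate 2. Nor did HOXB2 (13 and 22), HOXA2 (10 and 14) and HOXA13 (15 and 16), whereas HOXB3 (38 and 11) and HOXD1 (30 and 17) were higher in replicate 1. The endoderm markers, TBXT and CYP26A1 were also higher in replicate 1: TBXT, a mesoderm and tail bud factor, stood at 11.3 and 0.314 CPM, and CYP26A1, a retinoic acid degrading enzyme, at 34.4 and 0.0726 CPM. Their part in the HOX counts was not tested.

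**Figure D4:**
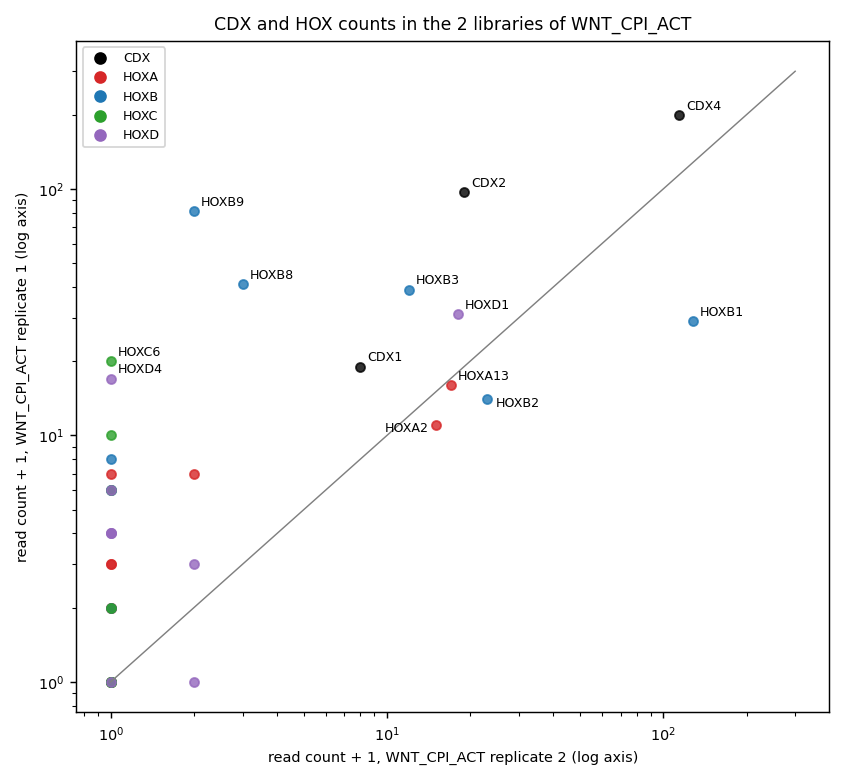
Read counts plus 1 of the 41 genes in WNT_CPI_ACT replicate 1 (vertical, log axis) against replicate 2 (horizontal, log axis), coloured by family, with the line of equal counts. HOXB9, HOXB8, HOXC6 and HOXD4 lie far above the line, with 80, 40, 19 and 16 counts against 1, 2, 0 and 0, while HOXB1 lies below it.

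Of the other HOXA genes described, HOXA2 had 11 and 8 counts in WNT_CPI and HOXA3 had 5 and 8, and no gene from HOXA4 to HOXA11 had more than 2. EVX1, a homeobox gene just beyond HOXA13, stood at 8.39 and 3.78 CPM in WNT and at 72.1 and 27 CPM in WNT_CPI. The paired fit called EVX1 up in both Wnt3a against medium and CPI-203 on top of Wnt3a, and the unpaired fit called it in neither. HOTTIP, the antisense gene beside HOXA13, reached 0.22 and 0.414 CPM in WNT_CPI. HAGLR, beside HOXD1, stood at 0.164 and 0.14 CPM in WNT and at 5.39 and 3.87 CPM in WNT_CPI (4.89, SE 0.47, edgeR adjusted p = 4.52e-05). HAGLR also rose in E7_ACT against E7 (1.44 and 0.684 CPM against 0.0238 and 0.0478), with an edgeR adjusted p of 0.00565, where HOXD1 had 8 and 4 counts against 2 and 1. Low counts of the last paralogs were spread over the groups: HOXD13 had 1 to 9 counts in 14 of the 16 libraries, and HOXC13 had 1 to 5 counts in 10.

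Of the 24 noncoding and neighbouring genes in or beside the clusters, 9 had enough counts for the test. Of these, 2 rose in WNT against E7 (HOTAIRM1 and SKAP2), 2 in E7_CPI against E7 (HAGLR and SKAP2) and 2 in WNT_CPI against WNT (HAGLR and HAGLROS), and none fell, where 0.605%, 32.7% and 31% of all tested genes were called. Their median log2 fold changes were 1.69, 0.45 and 0.74, where those of all genes were 0.02, -0.05 and -0.01. In the paired fit 3, 3 and 5 rose, where 2.33%, 44% and 52.9% of all genes were called. MTX2, a mitochondrial gene beside the HOXD cluster, fell in the last of these comparisons. SKAP2 lies outside the HOXA cluster and codes for a signalling adaptor, with 4.36 and 5.35 CPM in E7 and 17.5 and 13.9 CPM in WNT. Of the other ParaHox genes GSX1, GSX2 and PDX1, only PDX1, a pancreas and foregut factor that lies near CDX2, had enough counts. It had no count in either WNT library and stood at 0.294 and 0.414 CPM in WNT_CPI (edgeR adjusted p = 0.0152), and it had no count in WNT_CPI_ACT (edgeR adjusted p = 0.0159 against WNT_CPI).

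The TALE homeodomain proteins PBX, MEIS and PKNOX bind DNA together with HOX proteins, and 8 of their genes were taken and tested. None was called in WNT against E7 by edgeR's quasi-likelihood test, and MEIS1 and MEIS3 rose in the paired fit, beside 2.33% of all genes called. With CPI-203 alone MEIS1 rose, and PBX2 and PKNOX1 fell, 3 of 8 beside 32.7% of all genes. PBX2 stood at 115 and 111 CPM in E7 and at 31.2 and 31.7 CPM in E7_CPI, a log2 fold change of -1.84 (SE 0.10, edgeR adjusted p = 2.11e-06). With CPI-203 on top of Wnt3a PKNOX2 rose, and PBX2 and MEIS3 fell, 3 of 8 beside 31% of all genes. The median log2 fold change of the list was 0.28, 0.23 and 0.14 in these comparisons. On day 2, MEIS1 (2.65, SE 0.46, edgeR adjusted p = 0.01) and MEIS2 (5.13, SE 1.26, edgeR adjusted p = 0.0396) were higher and MEIS3 was lower in WNT_CPI_ACT than in WNT_ACT, where 5.9% of all genes were called.

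Of 17 caudal axis genes, which act in the tail bud where CDX and HOX genes are active, 16 were tested. In WNT against E7, 5 of these rose (SP5, SP8, NKX1-2, WNT5B and WNT3A) and none fell, beside 0.605% of all genes called, with a median log2 fold change of 1.38. SP5, a direct Wnt target, went from 0.0715 and 0.0716 CPM to 78.3 and 90.8 CPM. With CPI-203 alone, CYP26A1, SP8, LIN28B, NKX1-2 and TBX6 fell and GDF11, a growth factor of the tail bud, rose, beside 32.7% of all genes called, with a median of -0.43. The paired fit without E7_CPI replicate 1 did not call CYP26A1 and called LIN28A down. With CPI-203 on top of Wnt3a, 6 fell (LIN28B, NKX1-2, TBX6, WNT5A, WNT5B and WNT3A) and GDF11 rose, beside 31% of all genes called, with a median of -1.53. CDX1, CDX2, HOXA13 and HOXD1 rose in that comparison while these 6 genes fell. TBXT stood at 3.33 and 2.71 CPM in WNT and at 1.3 and 0.9 CPM in WNT_CPI. On day 2 after CPI-203, 10 of the 16 rose in WNT_CPI_ACT against WNT_CPI (CYP26A1, SP8, LIN28B, NKX1-2, TBX6, WNT3, WNT5A, WNT8A, FGF17 and WNT3A) and GDF11 fell, beside 26.9% of all genes called. Their median was 2.29, where that of all genes was -0.01. CYP26A1 had nearly all of its WNT_CPI_ACT level in replicate 1, as given above, so its rise rests mainly on that library.

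Of 15 Polycomb, trithorax and H3K27 demethylase genes, which set or remove the chromatin marks that keep HOX clusters silent or active, 14 were tested. None was called in WNT against E7 by edgeR's quasi-likelihood test, and KDM6B rose in the paired fit, beside 2.33% of all genes called. KDM6B, an H3K27 demethylase, rose with CPI-203 alone (log2 fold change 2.17, SE 0.22, edgeR adjusted p = 6.06e-05) and on top of Wnt3a (1.11, SE 0.21, edgeR adjusted p = 0.00248), as did MEN1, a partner of the trithorax methyltransferases. KDM6A, a related demethylase, fell in both (-1.69 and -1.47, edgeR adjusted p = 0.0071 and 0.0146). JARID2, a cofactor of the Polycomb complex that methylates H3K27, fell in both as well (-1.16 and -1.66, edgeR adjusted p = 0.0103 and 0.00156). RNF2 and CBX2 fell with CPI-203 alone and PCGF1 fell on top of Wnt3a. These were 6 and 5 of the 14 genes, beside 32.7% and 31% of all genes called. The list's median log2 fold change was -0.35 with CPI-203 alone and -0.06 on top of Wnt3a. All E7_CPI values in these lists include E7_CPI replicate 1. The paired fit without it kept the calls of E7_CPI against E7 for the TALE genes, the genes beside the clusters and this list.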

How the data were processed

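The authors deposited whole-number read counts per gene with Entrez IDs, in 1 table for each replicate number. The submitters' processing notes name featureCounts, DESeq2, Bowtie2, MACS2 and deepTools. The RNA aligner, the build and the strand setting are not given in the sources used here. The ATAC libraries (14) were not analysed here. E7_CPI replicate 1 was matched to the gene names of the replicate 2 table.

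Counts of the 16 libraries were fitted in edgeR 4.0.16 (R 4.3.3) over all genes, as 1 mean per group, after filterByExpr, which left 17355 genes. Libraries were scaled by TMM, with factors of 0.948 to 1.049, and groups were compared by 2-sided quasi-likelihood F-tests. P-values were Benjamini-Hochberg adjusted over all genes in each of 11 comparisons, and values under 0.05 are called. CPM are counts scaled to a common TMM-adjusted library total. Totals of 36268324 counts and more leave a group with 0 counts at or below 0.0415 CPM. The fit was tested on simulated data.

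Replicate numbers paired the libraries: deviations from group means correlated between same-numbered libraries at 0.457 to 0.898 in the 21 pairs of groups without E7_CPI, and at most at -0.0353 in pairs with it. The paired fit had the replicate number as a block, left out E7_CPI replicate 1 and tested 17793 genes. DESeq2 1.42.0, other filters, other scaling, the compared groups alone and leaving out each library were alternatives.

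Among the fitted genes, 1 that meets the naming rule and 1 of the TALE cofactor list are not reported here. The 41 genes, the gene lists and the comparisons were chosen with earlier results of these data known. Values per library are given for every gene called in at least 1 comparison, with or without the replicate block, and for all CDX genes. Other HOX genes are given by their counts. Genes of the lists are named for the comparisons described.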

Additional observations from a re-analysis of the deposited data

How the results depend on the processing

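Of the 501 values of single genes under 23 alternatives, 417 kept their direction and their side of the threshold, 37 passed it where the result as reported had not, 40 no longer passed it and 7 changed sign. Library totals in place of TMM changed no call of the 43 gene results, and DESeq2 ended none among those to which it gave an adjusted p. With the replicate block the number of genes called went from 1 to 3 in WNT against E7, from 0 to 1 in WNT_E7 against WNT and in WNT_ACT against WNT_E7, from 0 to 2 in WNT_ACT against E7_ACT and from 2 to 6 in WNT_CPI_ACT against WNT_ACT. Over all genes, the block called 299, 4, 773, 1509 and 2619 of 17355 in these comparisons. With the block and without E7_CPI replicate 1 the counts of the genes followed here were 3, 1, 1, 2 and 8, of 13 tested. HOXB8 and HOXB9 among the 8 passed that filter only through WNT_CPI_ACT replicate 1. DESeq2 gave 3 in WNT against E7, 2 in WNT_E7 against WNT, 1 in WNT_ACT against WNT_E7 and 2 in WNT_ACT against E7_ACT. Over all 17355 genes it called 303, 12, 694 and 1126 there. Fits of the compared groups alone gave 0 in WNT against E7, 1 in E7_CPI against E7 (3 as reported) and 0 in WNT_CPI_ACT against WNT_ACT. These fits have fewer libraries and tested 4, 2 and 8 of the genes, where 9 were tested as reported. Over all genes they called 6 of 16320, 6880 of 16245 and 0 of 16274. With 1 library left out, where the lone library of a group is assumed to vary like the others, the counts were 0 to 1 in WNT against E7, 2 in E7_CPI against E7, 3 to 5 in WNT_CPI against WNT (6 as reported), 0 to 3 in WNT_CPI against E7_CPI (3 as reported), 0 to 2 in WNT_CPI_ACT against WNT_ACT and 5 to 7 in WNT_CPI_ACT against WNT_CPI (6 as reported). They were 0 in the interaction and in the 4 comparisons reported at 0. The cause of these shifts was not tested. The fits with 1 library left out tested 13 of the genes followed here, or 9 without WNT_CPI_ACT replicate 1. Their counts are therefore not like for like with those of the 9 tested as reported. They are given without the share of all genes called, so they cannot be set against it. The highest count in WNT_CPI_ACT against WNT_CPI came without WNT_CPI_ACT replicate 2, in a fit that tested 13. The 7 sign changes came with 1 library left out, in results that were not called: log2 fold changes then ran from -1.04 to 0.15 for CDX4 in E7_CPI against E7, from -0.43 to 0.76 for CDX4 in WNT against E7, from -1.40 to 0.21 for HOXB1 in WNT_ACT against WNT_E7 and from -0.73 to 0.61 for HOXB1 in WNT_E7 against WNT. The stricter filter (at least 1 CPM in 2 libraries) tested 6 of the 41 genes. Genes with under 10 counts in every library could not be compared at this depth.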
